A study of Homo sapiens with 10 samples.

Results

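The microprotein EMBOW is encoded within the transcript of SCRIB, and SCRIB was taken here with 7 further genes of epithelial cell polarity: DLG1, LLGL1, LLGL2, PARD3, PARD6A, PARD6B and PRKCI. The 8 genes were listed by their known roles in polarity, with earlier results of these data in view. All 8 were found among the 20037 protein-coding genes that the RefSeq table (GRCh38.p14) places on the autosomes, X or Y. Binding was read from the authors' lists of peak summits, the single bases at which their peak caller placed the top of each ChIP-seq peak. A gene is called marked where a summit fell at most 1 kb from its start or end coordinate, on either side, and such a summit is called a gene-end summit.

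All cells were HEK293T, an established line from human embryonic kidney, grown in serum-containing DMEM. WDR5, a scaffold subunit of the complexes that methylate lysine 4 of histone H3, was precipitated with an anti-WDR5 antibody from wild-type cells (WT) and from cells with EMBOW knocked out (KO). The FLAG precipitation came from cells stably expressing the tagged protein EMBOW-FH, on anti-FLAG beads, and its list is called EMBOW-F. How the knockout was made, whether it is 1 clone, and whether the tagged cells also keep untagged EMBOW are not given in the sources used here. Each of these groups was 1 library, so no value below has a replicate error and no test between genotypes was possible. The H3K4me3 and input libraries were not analysed here.

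There were 17660 summits in WT, 21055 in KO and 93143 in EMBOW-F. Read depth is unknown, because the lists carry no counts. A rank is given as the position of a summit in its own list by −log10 q, in percent from the top, so that a small percentage is a strong summit. Ranks in lists of different lengths are set side by side and do not measure a change. As a look at cell identity, 6 genes known from embryonic kidney or HEK293T cells were taken. Of these, 4 were marked in WT (50% of all protein-coding genes) and 3 in KO (53.4%). PAX2 and NEFM were not marked in either list. Of 6 genes of liver, leukocytes, gut and muscle, 2 were marked in WT and 3 in KO, against the same shares. Summits do not measure expression, so these counts neither establish nor refute the label.

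Epithelial cells keep an apical and a basolateral face through modules that exclude each other. SCRIB, DLG1 and the Lgl proteins LLGL1 and LLGL2 form the Scribble module of the basolateral side. PARD3, a PAR6 protein and the atypical protein kinase C encoded by PRKCI form the PAR complex, whose kinase phosphorylates Lgl proteins and keeps them from the apical side. WDR5 on chromatin is known mostly from the start sites of active genes.

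At the 1 kb rule WDR5 was called at most of these genes in both genotypes, and tagged EMBOW at none of them. In the WT list 6 of the 8 genes were marked, against 50% of all protein-coding genes. In the KO list the same 6 genes were marked, against 53.4% of all genes. These 6 were SCRIB, LLGL2, PARD3, PARD6A, PARD6B and PRKCI, and 46.4% of all genes were marked in both lists. At 1 kb no member was marked in 1 genotype alone, which was the case for 6.99% of all genes in KO and 3.51% in WT. With a window of 500 bp only SCRIB, PARD6B and PRKCI were marked in both lists (3 of 8, 35.8% of all genes). LLGL2 and PARD3 were then marked in KO alone (9.05% of all genes) and PARD6A in WT alone (5.81%). A count of 6 of 8 lies above these shares, and 8 genes are too few to read it as particular to them. At a wider scale, 6 of 8 spans held a WDR5 summit in WT (50.9% of all genes) and 6 in KO (54.6%). Within the span or 10 kb of it, 7 of 8 had one in WT (63.2%) and 7 in KO (67.3%). LLGL1 was the exception in both lists.

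**Figure D1:**
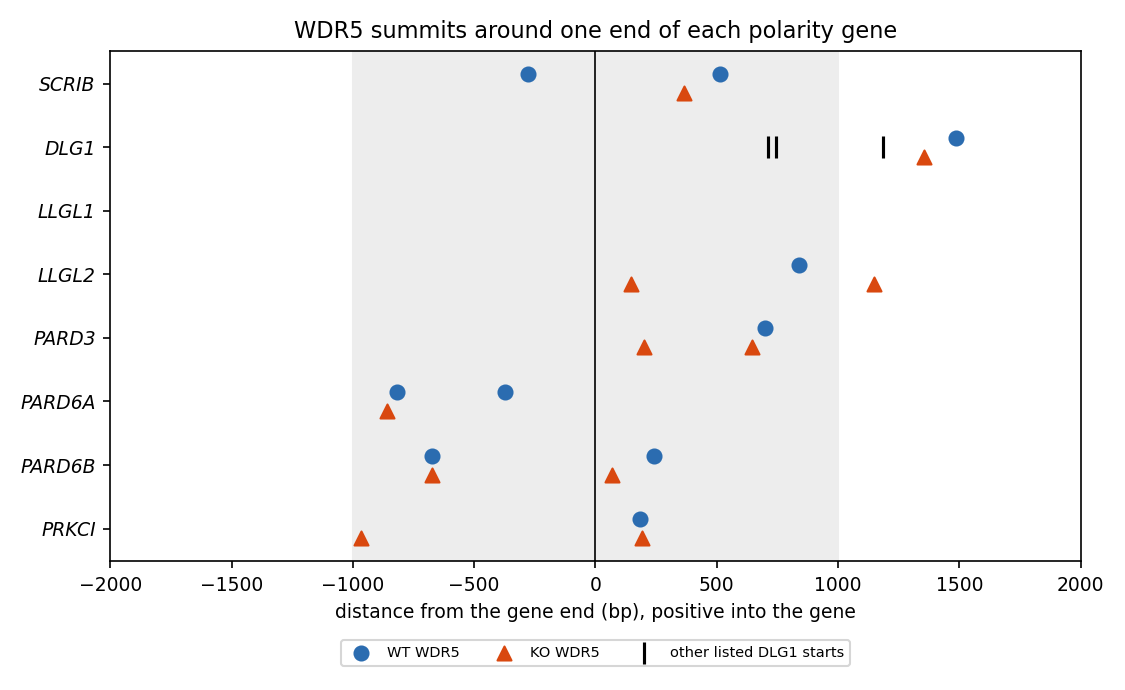
Positions of WDR5 summits around the end of each gene that lay nearest to them (for LLGL1, its start), in bp on the horizontal axis and positive into the gene. Blue circles are WT, orange triangles KO, black ticks the further DLG1 starts in RefSeq within the window, and the grey band is the 1 kb that counts as a gene end. LLGL1 has no point, and both DLG1 points lie beyond the band, 1484 bp (WT) and 1354 bp (KO) into the gene.

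Marked genes carried their gene-end summits at 1 end and not at the other. At SCRIB the far end was 19404 bp from a WT summit and 19378 bp from a KO summit. At PRKCI the far end was 51063 bp (WT) and 52025 bp (KO) away, and at PARD3 it was 705038 bp and 705088 bp away, nearly the length of the gene. For PARD6A, a gene of 1815 bp, the far end was 2185 bp from the nearest WT summit and 2672 bp from the nearest KO summit. PRKCI and PARD6A have a strand in the RefSeq promoter table, and the marked end was the 5′ end at both.

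The best gene-end summits of the members spread over both lists. The WT order was PARD3 at 10.1% from the top, PRKCI at 13.0%, PARD6B at 15.6%, SCRIB at 26.0%, LLGL2 at 38.2% and PARD6A at 58.7%. The KO order was PRKCI at 18.5%, PARD6A at 25.7%, SCRIB at 28.4%, PARD6B at 43.6%, LLGL2 at 45.1% and PARD3 at 45.7%. PARD3 thus stood first in WT and last in KO, and PARD6A last in WT and second in KO, while SCRIB held a middle place in both. The median over the 6 genes was 20.8% in WT and 36.0% in KO. The KO order and median leave out a stronger LLGL2 summit at 18.6%, which lay 1147 bp inside the gene. With it, LLGL2 would stand directly after PRKCI in KO and the KO median would be lower. The KO median of the members therefore rests on where the window ends. Over all marked genes the median was 33.7% in WT and 30.2% in KO. Without replicates, the spread that neighbours in these orders should exceed is unknown.

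**Figure D2:**
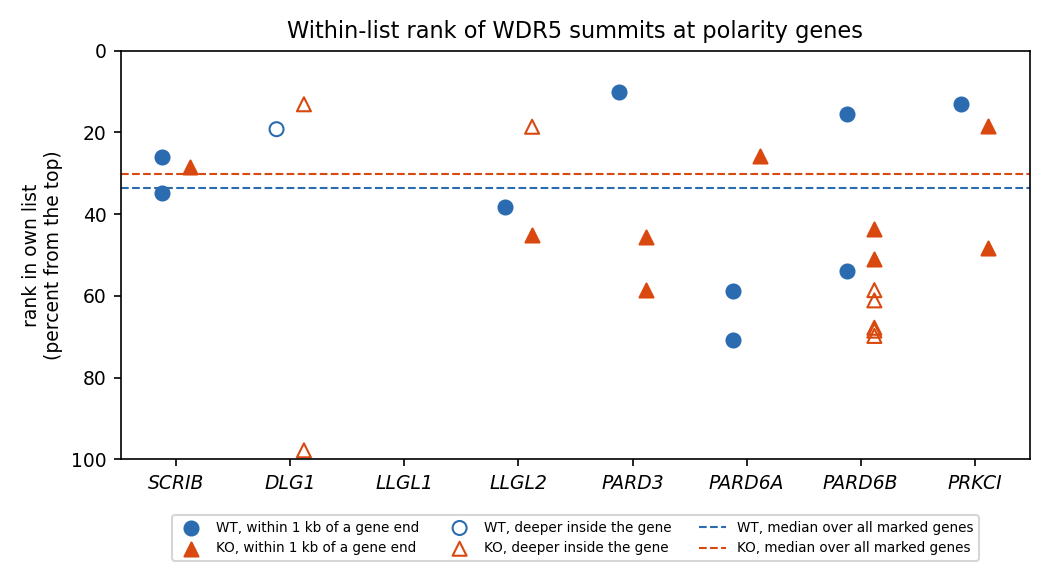
Rank of every WDR5 summit at or inside each gene, in percent from the top of its own list (vertical axis, strong summits at the top). Filled symbols lie within 1 kb of a gene end, open symbols deeper inside, and dashed lines are the medians of the best gene-end summit over all marked genes (33.7% in WT, 30.2% in KO).

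The best WT and KO summits of a gene mostly lay close together. They were 9 bp apart at PRKCI, 38 bp at PARD6A, 50 bp at PARD3, 148 bp at SCRIB, 173 bp at PARD6B and 690 bp at LLGL2. Over the 9307 genes marked in both lists the median was 78 bp, with quartiles of 25 and 252 bp. A WT partner within 500 bp stood beside the best KO gene-end summit at 5 of the 6 genes, and 86.3% of all genes marked in both lists had best summits that close. LLGL2 was the gene without such a partner.

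SCRIB, the basolateral scaffold whose transcript also encodes EMBOW, spans chromosome 8 from 143790925 to 143815773, and it is transcribed from the minus strand, so that its 5′ end is the higher coordinate. WDR5 was called at that end in both genotypes. The KO list had 1 summit there, at 143815408, which lay 365 bp inside the gene, had a −log10 q of 10.9 and ranked 5989. The WT list had a summit at 143815260, which lay 513 bp inside, had a −log10 q of 11.3 and ranked 4586. A further WT summit at 143816050 lay 277 bp outside the gene, with a −log10 q of 9.13 and rank 6121. The WT summits were thus 790 bp apart, with the KO summit between them, 148 bp from the inner and 642 bp from the outer. The KO list therefore had no summit within 500 bp of the outer WT summit. Because EMBOW is encoded in this transcript, the knockout may have changed the DNA of this locus, and how it was made is not given. Its part in this difference was not tested. Of all genes, 5.86% were marked in both lists with more gene-end summits in WT, and 7% with more in KO.

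The outer WT summit is not at SCRIB alone. PUF60, which encodes a poly(U)-binding splicing factor, has its nearer end 571 bp beyond SCRIB, and the outer WT summit lay 294 bp from that end of PUF60. The KO summit was also within 1 kb of it. At its other end SCRIB is separated from IQANK1 by 280 bp, and no WDR5 summit of either genotype was within 1 kb of that end.

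Within 50 kb of SCRIB there were 8 WT summits and 6 KO summits. All 6 KO summits had a WT partner within 500 bp, and 6 of the 8 WT summits had a KO partner. The strongest lay not at SCRIB but 13.4 kb beyond its 5′ end, where PUF60 meets NRBP2, a gene of a pseudokinase. The WT summit there, at 143829184, ranked 803 (4.55% from the top), and the KO summit 17 bp away ranked 398 (1.89%). A neighbouring summit at 143829798 fell on the same base in both genotypes. The summits at the far end of NRBP2 lay 8 bp apart. EPPK1, farther out on that side, had no gene-end summit in either list. Inside IQANK1, on the other side of SCRIB, pairs lay 26 bp and 281 bp apart. The WT summits without a partner were the outer SCRIB summit and a weak summit at 143828105 (94.6% from the top), 1096 bp from the nearest KO summit. 

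**Figure D3:**
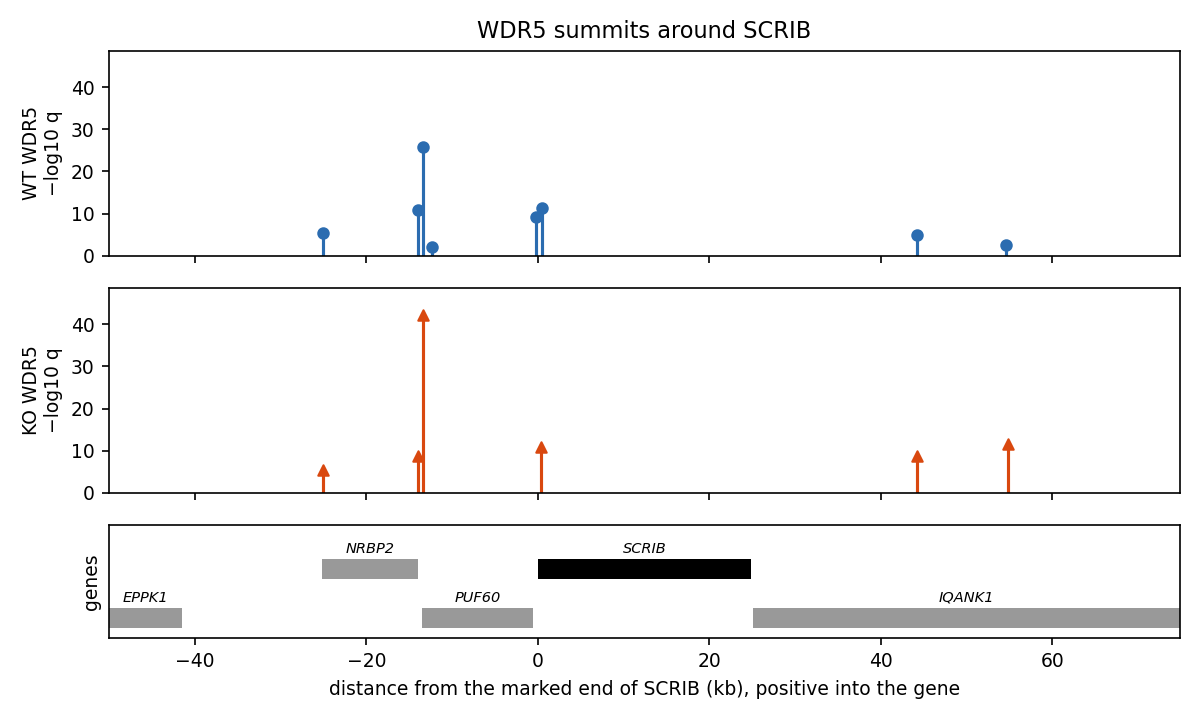
WDR5 summits within 50 kb of SCRIB, plotted as distance in kb from its marked end (positive into the gene) against −log10 q in the WT list (top) and the KO list (middle), with protein-coding genes below. The WT list shows 8 summits and the KO list 6, the tallest at the PUF60 and NRBP2 boundary 13.4 kb away. Heights belong to their own list and are not compared between lists.

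EMBOW-F was not called near the gene that encodes EMBOW, although SCRIB was closer to an EMBOW-F summit than most genes. The nearest one lay 0.521 Mb away, and 71.2% of all protein-coding genes lay farther from one. No EMBOW-F summit lay inside any of the 8 genes, as it did in 5.15% of all genes, or within 10 kb of them, where 6.67% of all genes had one. Only 1.40% of all genes had an EMBOW-F gene-end summit, so 0 of 8 is near the background. The nearest summits ranged from 0.521 Mb at SCRIB to 4.89 Mb at LLGL2. The median over all genes was 1547 kb.

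By the pair of ranks in WT and KO, the genes nearest to SCRIB were GUCY1B1, a subunit of soluble guanylate cyclase (26.0% and 28.5%), RXRA, a nuclear receptor (25.8% and 28.5%), and TIAM2, a Rac exchange factor (25.8% and 28.0%). The measure was the Euclidean distance over the 2 libraries. It was 0.085, 0.14 and 0.49 percentage points for these genes.

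DLG1, a membrane-associated guanylate kinase scaffold that works with SCRIB, was not marked by the 1 kb rule and yet had a strong WDR5 summit in both lists. The gene spans chromosome 3 from 197042560 to 197299321 on the minus strand. The WT summit at 197297837 had a −log10 q of 13.6 and ranked 3383 (19.2%). The KO summit at 197297967 had a −log10 q of 17.5 and ranked 2766 (13.1%), the highest KO rank of any summit inside the 8 genes. They lay 130 bp apart, 1484 and 1354 bp inside the outermost end. RefSeq lists 5 starts for DLG1, and these summits lay 298 bp (WT) and 168 bp (KO) downstream of the start at 197298135. When a summit within 1 kb of any listed start also counted, a choice made after seeing the data, DLG1 was marked and 7 of 8 genes were marked in each list. Over all genes this raised the counts to 10736 in WT and 11466 in KO. A further KO summit deep inside DLG1, at 197152656, ranked 20584, near the bottom of the list, and had no WT partner.

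LLGL1 and LLGL2, the homologues of the Drosophila tumour suppressor lethal giant larvae, differed in both WDR5 lists. LLGL1 (chromosome 17, 18225635 to 18244875) had no WDR5 summit inside the gene or within 10 kb. The nearest summits lay 13799 bp (WT) and 12852 bp (KO) beyond its 3′ end, and its 5′ end was 33039 and 32092 bp from any. LLGL2 (chromosome 17, 75525002 to 75575209) had a WT summit at 75525840, which lay 838 bp inside the gene and ranked 6741. In KO a summit at 75525150 lay 148 bp inside and ranked 9505. It also lay 415 bp from the nearer end of the neighbouring gene TSEN54, so it is not at LLGL2 alone. A stronger KO summit at 75526149 ranked 3926 and lay 1147 bp inside, just beyond the 1 kb rule and 309 bp from the WT summit. The missing partner of LLGL2 in the count above therefore rests on where the window ends, and with a distance of 1 kb all 6 genes had a partner. The nearest strong neighbours of LLGL2 were a WT summit at rank 680 and a KO summit at rank 962, 20 bp apart, at the far end of TSEN54, a subunit of the tRNA splicing endonuclease.

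The RefSeq promoter windows of DLG1 and LLGL1 are set side by side because the former had WDR5 summits downstream and the latter had none within 10 kb. The 250 bases before the start at 197298135 of DLG1 (chr3:197298136-197298385, minus strand) and before the start of LLGL1 (chr17:18225385-18225634, plus strand) are given 5′ to 3′, from GRCh38.p14. Capitals mark matches to the motifs searched on both strands: CACGTG (the E-box of MYC and MAX), GGGCGG (the SP/KLF box), CCAAT (the NFY box), CCGGAAG (the ETS core), TATAAA (the TATA box) and the palindromic core of the NRF1 site.
DLG1: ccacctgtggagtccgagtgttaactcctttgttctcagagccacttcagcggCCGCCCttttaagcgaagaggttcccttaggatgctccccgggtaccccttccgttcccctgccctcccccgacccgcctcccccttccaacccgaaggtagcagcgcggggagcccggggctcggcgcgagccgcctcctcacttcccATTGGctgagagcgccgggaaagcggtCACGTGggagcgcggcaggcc
LLGL1: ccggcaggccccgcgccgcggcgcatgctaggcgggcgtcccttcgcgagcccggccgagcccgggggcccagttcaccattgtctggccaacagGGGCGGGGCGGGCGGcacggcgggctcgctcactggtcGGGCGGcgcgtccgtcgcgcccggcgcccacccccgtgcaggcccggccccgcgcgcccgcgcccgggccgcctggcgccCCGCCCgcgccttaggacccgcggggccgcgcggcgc
The DLG1 window held an E-box whose first base lay at −21 from the start, an inverted CCAAT at −48 and an inverted SP/KLF box at −197. An E-box was found in 7.26% of the 35116 windows of 250 bases before to 50 after a start, a CCAAT in 34.6% and a GGGCGG in 45%. The LLGL1 window held 6 matches to GGGCGG, 5 of which lie in the part shown and some of which overlap or adjoin. It had a GC content of 84.0% and 56 CpG dinucleotides, against medians of 58.7% and 14 over all windows. The DLG1 window had 67.3% GC and 27 CpG. These matches are letters in a window and do not show binding of a factor.

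PARD3, the scaffold of the PAR complex, had the strongest WT gene-end summit of the 8 genes. The gene spans chromosome 10 from 34109561 to 34815296. The WT summit at 34814599 had a −log10 q of 18.5 and ranked 1780. The KO summit nearest to it, 50 bp away at 34814649, had a −log10 q of 6.95 and ranked 9623. The KO list had a further summit at 34815096, which lay 200 bp inside the gene end, ranked 12340 and was 497 bp from the WT summit. A single WT summit thus stood beside a pair of weaker-ranked KO summits.

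PRKCI, the atypical protein kinase C iota, had the closest pair of best summits among the members. The gene spans chromosome 3 from 170222424 to 170305977 on the plus strand. The WT summit at 170222606 had a −log10 q of 16.5, ranked 2302 and lay 182 bp downstream of the start. The KO summit at 170222615 had a −log10 q of 14.6, ranked 3904 and lay 191 bp downstream. A distance of 9 bp or less was found for 10.8% of genes marked in both lists. The KO list had a second summit at 170221456, which lay 968 bp upstream of the start, just inside the window, ranked 10178 and was 1150 bp from the WT summit.

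PARD6A encodes an adaptor that links PARD3, CDC42 and the kinase, and its marks lay upstream of it, where they cannot be assigned to it alone. The gene (chromosome 16, 67660960 to 67662774, plus strand) starts 700 bp from the start of ACD, which encodes the shelterin protein TPP1 and runs the other way. The KO summit at 67660102 ranked 5401 and lay 858 bp upstream of PARD6A, which is 158 bp inside ACD. The WT summit at 67660140 ranked 10363 and lay 820 bp upstream, 120 bp inside ACD. A second WT summit at 67660589, between the genes, lay 371 bp upstream of PARD6A and 329 bp from ACD, and ranked 12496. No summit of either list was called inside PARD6A, and the 500 bp window left it marked in WT by the weaker summit and unmarked in KO.

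The promoter windows of PRKCI and PARD6A are shown because the best summits lay just downstream of the former start and well upstream of the latter. The 250 bases before the starts of PRKCI (chr3:170222174-170222423) and PARD6A (chr16:67660710-67660959) are on the plus strand, with capitals as above.
PRKCI: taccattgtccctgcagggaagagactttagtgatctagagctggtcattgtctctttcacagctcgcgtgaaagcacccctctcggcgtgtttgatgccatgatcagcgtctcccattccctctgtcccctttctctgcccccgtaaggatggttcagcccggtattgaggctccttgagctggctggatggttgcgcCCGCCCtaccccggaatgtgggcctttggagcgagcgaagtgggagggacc
PARD6A: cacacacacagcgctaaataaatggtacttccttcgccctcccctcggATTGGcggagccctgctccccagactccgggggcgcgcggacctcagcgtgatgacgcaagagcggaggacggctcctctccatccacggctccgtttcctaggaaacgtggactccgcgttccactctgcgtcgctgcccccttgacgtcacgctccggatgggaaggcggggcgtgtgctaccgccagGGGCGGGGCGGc
PRKCI had an inverted GGGCGG at −51 and a further match downstream of the start, and PARD6A had an inverted CCAAT at −202 and GGGCGG matches at −12 and −7 in the part shown. The GC contents of the whole windows were 60.7% and 70.3%, with 19 and 36 CpG. The windows shown of all 4 members had more CpG than the median of 14. The DLG1 window was picked by its distance to the summits, and the windows of the other 4 DLG1 starts had 4, 10, 12 and 14 CpG. None of the 4 windows shown held the TATA box, the ETS core or the NRF1 core, which were found in 11.5%, 10.3% and 1.24% of all windows. The window of the outermost DLG1 start, at 197299321, held an inverted ETS core at −14 and a CCAAT at −63.

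PARD6B, the second PAR6 adaptor of the list, had the most WDR5 summits of the 8 genes in KO. It spans chromosome 20 from 50731580 to 50753741. At its start the genotypes had a summit each outside the gene, 3 bp apart (50730905 in WT and 50730908 in KO), at ranks 9536 and 10719. Inside the gene, the WT summit at 50731823 lay 243 bp from the start, had a −log10 q of 14.96 and ranked 2762. The KO summit at 50731650 lay 70 bp from the start, had a −log10 q of 7.51 and ranked 9170. Both genotypes thus had 2 gene-end summits, as 12.7% of all genes had 2 or more in WT and 14.5% in KO.

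Deeper in PARD6B the KO list held 5 summits and the WT list none. They lay at 50739264, 50741260, 50741878, 50742584 and 50744329, within a stretch of 5065 bp that begins 7684 bp from the start of the gene. Neighbours in the stretch were between 618 and 1996 bp apart, and the nearest WT summit was between 7.44 and 12.5 kb away. Their ranks were low, from 58.6% to 69.8% from the top of the KO list, and their −log10 q ran from 4.06 to 5.22. At a q of 1e-05 or less, 1 of the 5 was left. Having 5 or more KO summits over 1 kb inside both ends was rare, at 0.479% of all genes, and 0.200% had as many in WT. Having 5 or more in KO and none in WT was seen at 2 of 20037 genes (0.00998%), PARD6B and NSUN6. The converse was seen at 1 gene (0.00499%). The number 5 was chosen after these summits were seen, so the shares describe PARD6B and are no test of it. The KO list is longer than the WT list. All 5 summits ranked between 12340 and 14701, so they remain when the KO list is shortened to 17660 summits. The part of list length or local signal in these low-ranked summits was otherwise not tested.

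**Figure D4:**
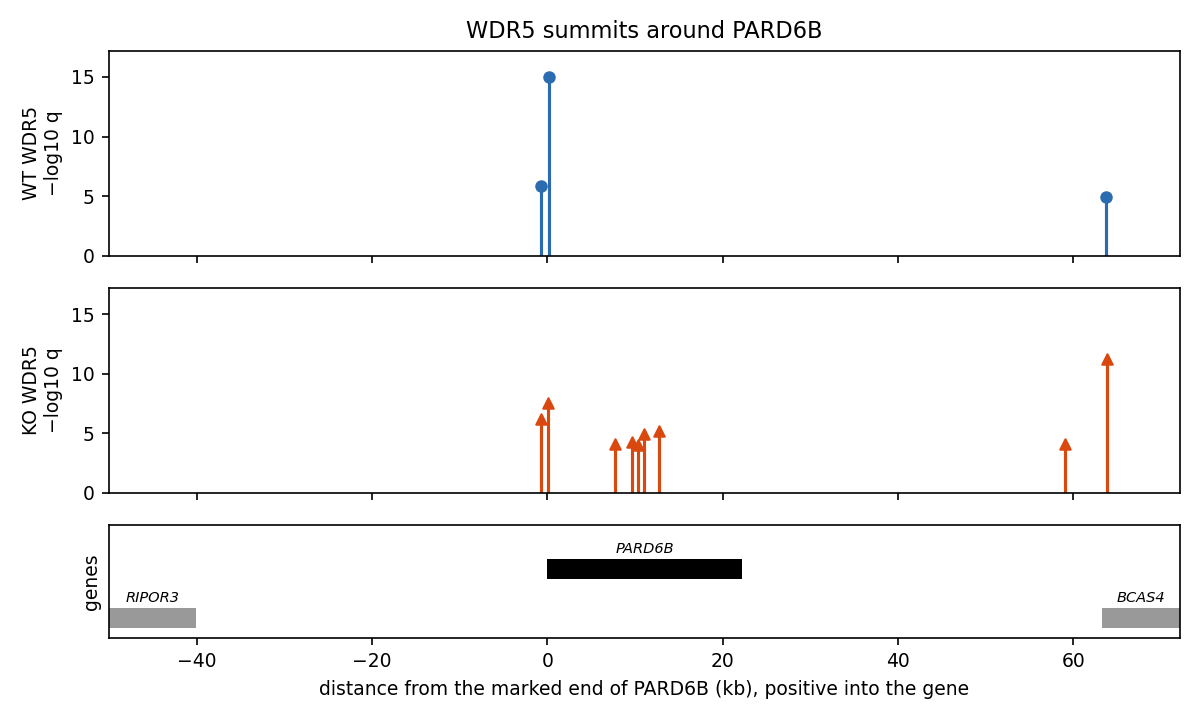
WDR5 summits within 50 kb of PARD6B, as distance in kb from its marked end (positive into the gene) against −log10 q in the WT list (top) and the KO list (middle), with protein-coding genes below. The 5 KO summits inside the gene, with −log10 q from 4.06 to 5.22, have no WT counterpart, while the summits at the start are in both lists.

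The authors' deposited table of transcripts, named as new targets of WDR5 that depend on EMBOW, did not include the 8 genes. In the authors' deposited table, 0 of 18665 transcripts overlapped a member. Of all protein-coding genes only 11.5% were overlapped by at least 1, so 0 of 8 is near the background. The closest entry in the authors' deposited table, ENST00000243878 on the minus strand, ends 171 bp beyond PARD6A and has the coordinates of ENKD1. For PARD6B, with its 5 deep KO summits, the closest entry in the authors' deposited table lay 40038 bp away, and for SCRIB 41551 bp.

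A wider list of 51 polarity genes placed the members among their pathway. In WT 39 of the 51 were marked (50% of all genes) and in KO 42 (53.4% of all genes), with 37 in both (46.4% of all genes). In the Scribble, PAR and Crumbs modules with their kinases and partners, 24 of 35 were marked in WT and 28 in KO. In planar cell polarity, the system that orients cells within the sheet, 15 of 16 were marked in WT and 14 in KO. The median rank of the best gene-end summit was 29.8% over the marked genes of the list in WT and 42.5% in KO. Over all marked genes it was 33.7% in WT and 30.2% in KO.

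The 5 highest genes of the wider list by mean rank were TIAM1, MARK2, FUZ, STXBP5 and FZD6. TIAM1, a Rac exchange factor that binds PARD3, was far above every member, at 0.583% from the top in WT and 0.385% in KO. MARK2, the mammalian PAR-1 kinase, stood at 4.34% and 2.98%. FUZ, a planar polarity effector of ciliated cells, stood at 2.10% and 9.90%. STXBP5, a syntaxin-binding relative of the Lgl proteins, stood at 5.42% and 17.3%. FZD6, a Frizzled receptor of planar polarity, stood at 20.5% and 4.63%.

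Of the 51 genes of the wider list, 5 were marked in KO alone (6.99% of all genes): LRRC7, STXBP5L, MARK4, ARHGEF7 and INTU. Their KO summits ranked low, between 50.6% for MARK4 and 97.1% for INTU. ARHGEF7, an exchange factor that binds SCRIB, stood at 73.7%, with the nearest WT summit 39401 bp from a gene end. PRICKLE2 (68.7% in WT) and PRICKLE3 (72.1%), both planar polarity genes, were marked in WT alone, as were 3.51% of all genes. Both counts are near the shares over all genes and are not read as particular to polarity genes. The members with a partner in both lists and these single-genotype genes were not tested against each other.

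**Figure D5:**
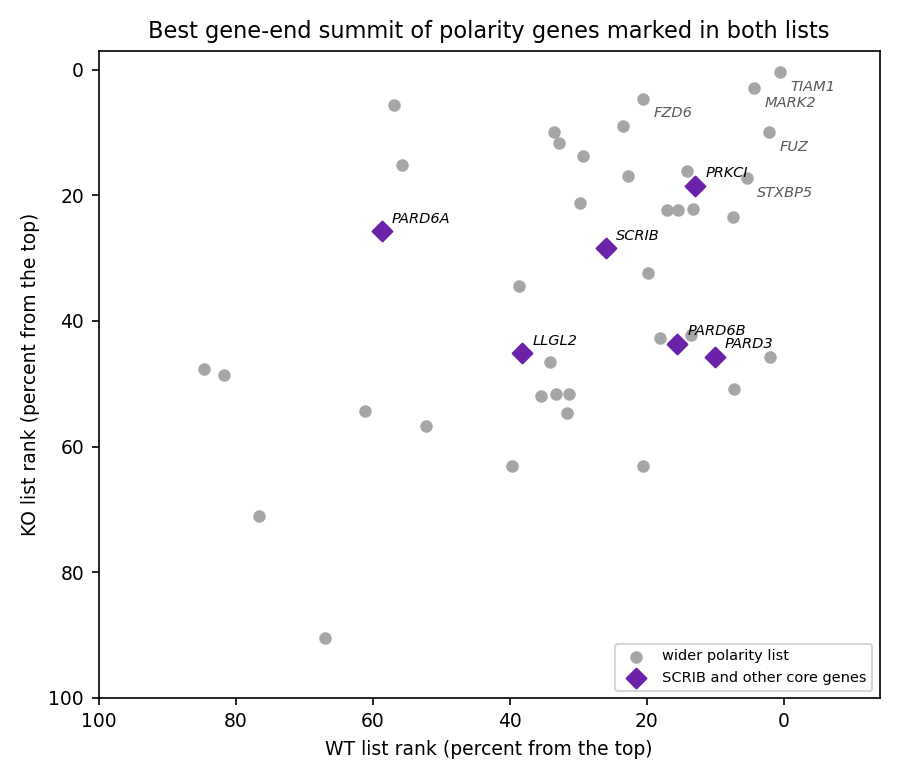
Rank of the best gene-end summit in the WT list (horizontal) and the KO list (vertical), in percent from the top, for the 6 members (purple diamonds) and the 37 genes of the wider list (grey circles) marked in both. The top right corner holds the strongest, where TIAM1 (0.583% and 0.385%) lies, and PARD6A (58.7% and 25.7%) lies apart from the other members.

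In the wider list, 5 of the 51 genes had an EMBOW-F summit inside the span or within 10 kb, against 6.67% of all genes. The members had none, and counts this small are not read as a contrast between the members and their paralogues. DLG2, a neuronal paralogue of DLG1, held 120 EMBOW-F summits inside its 2173 kb. LRRC7, a neuronal relative of SCRIB in the LAP family, held 84 in 576 kb, and STXBP5L held 46 in 517 kb. CRB1, a Crumbs protein of the retina, held 2, and STXBP5 held 1. The paralogues DLG3, DLG4, DLG5, ERBIN, LRRC1, PARD3B, PARD6G and PRKCZ had 0 within 10 kb. DLG1 (257 kb) and PARD3 (706 kb) held none, although they are also long. The long genes PARD3B (1074688 bp), TIAM1 (440670 bp) and PATJ (421436 bp) of the wider list held none either. Of the 1000 protein-coding genes of at least 250 kb, 353 (35.3%) had an EMBOW-F summit inside. Of the 169 genes of at least 700 kb, 110 (65.1%) had one, and PARD3 was among those without. These lengths were chosen after seeing the data.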

How the data were processed

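The series holds 10 samples, each the 1 library of its group, and 3 lists of summits were used. Per the submitters' processing notes the tools were MACS2 2.2.7.1, Bowtie2 2.4.5 and deepTools 3.5.1 on hg38, with no setting given. The material came from nuclei digested with MNase, per the labels' protocols. The deposited summit lists hold intervals of 1 bp with a −log10 q value per summit. That unit was read from the values, since the lowest in each list lies just above 1.30, the −log10 of 0.05. It is the authors' own score, used only to rank, describe or filter within a list. Ties share the best rank. The sources used here do not give inputs, cutoffs or pooling. The EMBOW-F list belongs to no sample by name and was matched to the only ChIP of tagged EMBOW in the labels.

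Distances were computed with Python 3.11.15, numpy 2.4.6 and pandas 2.3.3, and figures with matplotlib 3.10.9. Gene spans and promoter sequences came from RefSeq (GRCh38.p14). The promoter table matched DLG1, LLGL1, PARD6A and PRKCI. Coordinates are those of the files (hg38), counted from 1. The gene-end step was tested on simulated data, with a summit planted less than 2 kb from the start coordinate of each of 200 genes. All 200 were called or left uncalled as the 1 kb rule required, and no other gene was called. The members, the wider list and the counts made were chosen with earlier results of these data known. Genes named were all 8 members. In the wider list they were the 5 highest by mean rank, those marked in 1 genotype and those with an EMBOW-F summit within 10 kb. Paralogues of the members, and genes of at least 250 kb, without such an EMBOW-F summit were named beside these. At SCRIB they were neighbours within 50 kb and the 3 genes nearest in rank.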

Additional observations from a re-analysis of the deposited data

How the results depend on the processing

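The counts of marked members and genes in each list stayed within 1.5 times of those reported under every alternative run: windows of 500 bp and 2 kb, a q of 1e-05 or less, the KO list shortened to 17660 summits, other partner distances, 5′ ends and listed starts. Marked members ranged from 4 to 7 in WT and from 5 to 7 in KO, and stayed at 0 for EMBOW-F. The count of members marked in both lists did change: it fell from 6 to 3 with the 500 bp window, since different members were marked in WT and KO, and was 6 or 7 otherwise. That comparison was added after seeing the data. The 5′-end alternative used a strand for the 4 members in the promoter table. No paired analysis was possible because each group has 1 library and no test was made. Depth is unknown, so a summit missing from a list may be one that fell below the cutoff. Summits near several genes count for each of them.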

Other observations

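The neighbourhood of LLGL1, the member without a WDR5 summit, held 2 WT and 8 KO summits within 50 kb. They lay around the ends of ALKBH5, an RNA demethylase, and of FLII and MIEF2. At ALKBH5 the WT summit at 18184105 ranked 994 and the KO summit at 18184032 ranked 2035. At FLII the WT summit at 18258674 ranked 6816 and the KO summit at 18258633 ranked 4129. The 6 further KO summits ranked from 8586 to 20584. No gene-end summit was called at LLGL1 in either list. Around PARD6B there were 3 WT and 9 KO summits within 50 kb, and around SCRIB 8 and 6.

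LLGL1 also stood apart by the base composition of its start. Only 0.663% of protein-coding genes in the promoter table had a first-listed window with its GC content of 84.0% or more. Of the 557 genes with a window of 80% GC or more, 79.5% had a WT summit and 83.3% a KO summit within 1 kb of that start. The share was 10.6% and 11.9% of the 2817 genes under 50% GC. LLGL1 was thus without a summit in a class of starts where most have one. These classes were chosen after seeing the data and were not tested, and expression was not measured in these files.

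Runs of 5 summits within 5065 bp, the length of the stretch in PARD6B, were counted along the whole lists after that stretch was seen. The KO list had 56 such runs, of which 2 held no WT summit. The WT list had 35, of which 0 held no KO summit.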
